A study of Mus musculus with 26 samples.

Results

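The cell cycle and proliferation genes described here are 39 named genes, matched by symbol to Ensembl identifiers in the deposited count tables, out of 55401 genes in all (55141 with a symbol). All 39 were found in both tables. By their roles 14 were treated as S phase genes (*Ccne1*, *Ccne2*, *E2f1*, *Cdt1*, *Cdc6*, *Mcm2* to *Mcm7*, *Pcna*, *Rrm2* and *Tyms*) and 22 as mitotic genes (*Mki67*, *Top2a*, *Cdk1*, *Ccna2*, *Ccnb1*, *Ccnb2*, *Bub1*, *Bub1b*, *Aurka*, *Aurkb*, *Plk1*, *Birc5*, *Cdc20*, *Cdca8*, *Nusap1*, *Tpx2*, *Prc1*, *Cenpe*, *Cenpf*, *Foxm1*, *Melk* and *Hmgb2*). The other 3, *Ccnd1*, *Cdkn1a* and *Mybl2*, were kept apart from both classes. The question followed through all 10 groups is whether the S phase and the mitotic genes moved together after nerve crush and in culture.

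A dividing cell passes from G1 into S phase when cyclin D and cyclin E kinases release the E2F transcription factors, which switch on the genes for loading and running the replication machinery. Genes of G2 and mitosis are switched on later, by a different complex that includes B-Myb and FOXM1, and p21, the product of *Cdkn1a*, holds the cyclin-dependent kinases back. Sensory neurons of the dorsal root ganglia (DRG), which lie beside the spinal cord, no longer divide, while the glia, vessel cells and immune cells around them can.

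The study used mice in which the aryl hydrocarbon receptor gene *Ahr* was to be removed from neurons. The conditional knockout (cKO) mice were Ahr f/f Thy1-CRE(ERT2/EYFP), in which the *Thy1* promoter, active in neurons, drives a Cre recombinase that tamoxifen switches on. The control groups were labelled Ahr fl/+ or Ahr fl/fl, with no Cre. Naive control mice were Ahr fl/+ in replicates 1 and 2 and Ahr fl/fl in replicate 3, as were the injured controls. These naive and injured mice, 3 per genotype and condition, were injected with tamoxifen into the peritoneum, 100 mg/kg once a day for 5 days from an age of 28 weeks. Lumbar ganglia L4 to L6 of each mouse, taken 5 weeks later, made 1 library. In the injured groups the sciatic nerve had been crushed 1 day before. A further set held semi-purified neurons 24 hours after seeding (3 per genotype, labelled female, controls Ahr fl/fl) and ganglia of both sides taken 1 day after sham surgery from 2 male mice per genotype, with controls labelled Ahr f/+ (replicate 1) and Ahr fl/fl (replicate 2). No tamoxifen was stated in the labels of this set. All ganglia were dissociated 2 to 4 hours into the light phase.

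The depth of a library, as its total count over genes, ranged from 20169388 to 23540375 for naive and injured ganglia. For sham ganglia it ranged from 39306414 to 58751270, and for neurons from 25299938 to 88180611. *Ahr* overlapped between the genotypes in naive ganglia (21.4 to 26.8 CPM, counts scaled to library size, in cKO and 18.01 to 22.84 in control) and was not called lower in cKO in any setting, so it does not check the labels, whereas *Thy1* was higher in every cKO library of each set. In 2 of 26 libraries, injured control replicate 3 and injured cKO replicate 2, *Xist* and Y-linked counts did not match the labelled sex. By these counts the naive and injured ganglia were female except 2 of the 3 injured cKO libraries, so sex and crush are partly confounded in cKO. Reads of overlapping genes were counted for both genes whatever the strand (*Tsix* stood at 100% to 100.3% of *Xist* in female libraries). The libraries labelled neurons held a lower sum of 7 neuron markers (3071 to 3519 CPM) than the ganglia (4821 to 7592). Against naive ganglia 2 of the 7, *Avil* and *Prph*, were higher and 5 lower. Their sum of 5 endothelial markers was higher (945 to 1422 CPM against 75.2 to 177). In whole tissue, fewer cells of a type and less RNA per cell cannot be told apart. The labels number the replicates of each group as mice.

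The summed CPM of the 14 S phase genes lay in a like range in naive and injured ganglia and was highest in cultured neurons. It was 110.4 to 144.4 in the 6 naive libraries, 109 to 118 in the 6 injured, 165 to 183 in the 8 sham and 291 to 315 in the 6 neuron libraries. The summed CPM of the 22 mitotic genes did not follow: it was 55.4 to 146 in naive, 58.7 to 81.5 in injured, 71.4 to 135 in sham ganglia and 79.6 to 95.2 in neurons. The ratio of the S phase to the mitotic sum lay between 3.21 and 3.70 in neuron libraries and between 0.988 and 2.38 in the 20 ganglia, so no neuron library overlapped a ganglion library. These sums are not scaled by gene length, so their change between libraries can be read but not the level of one class against the other, and the ratio was not tested.

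**Figure D1:**
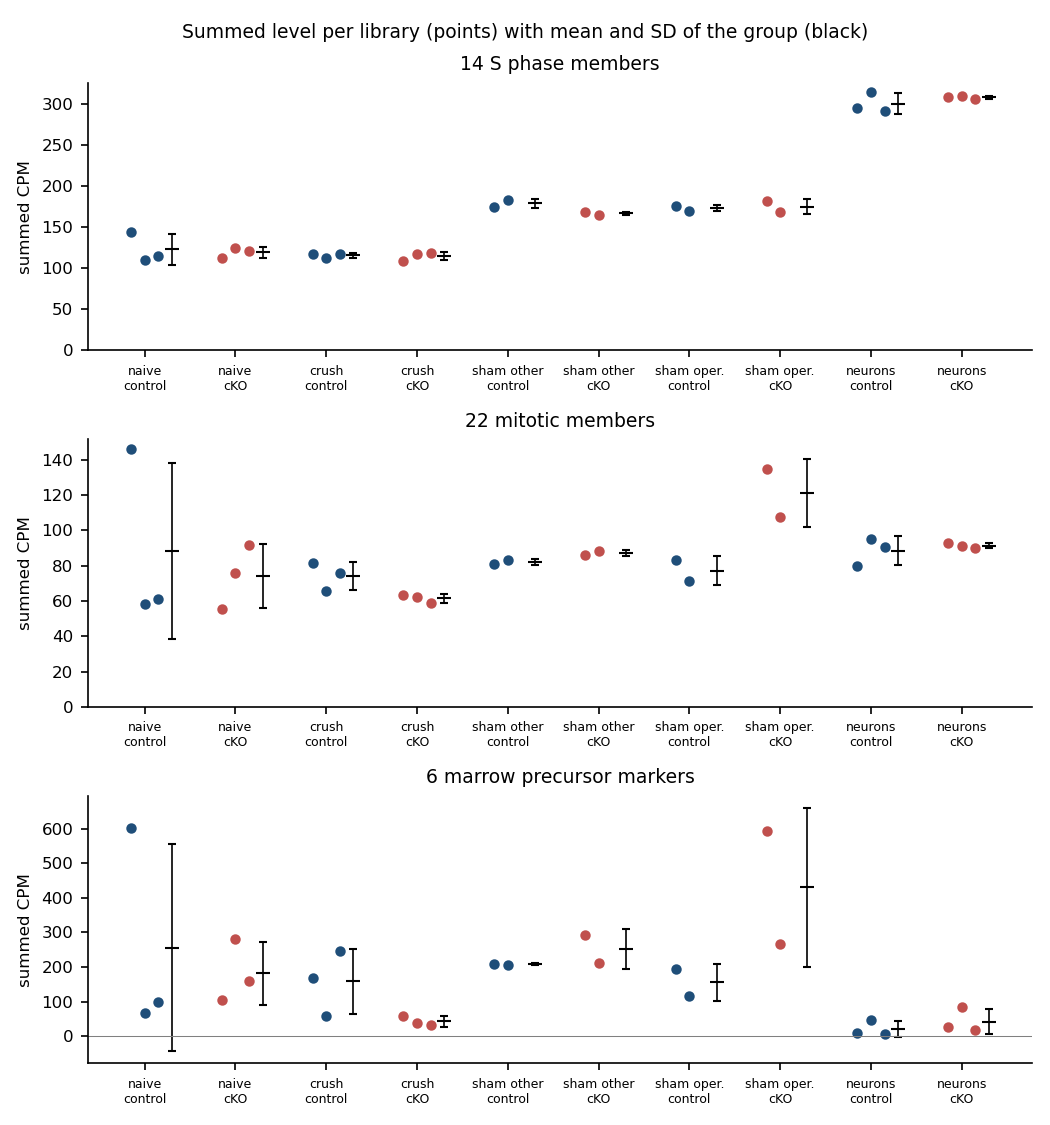
Summed level (CPM, linear axis) of the 14 S phase genes, the 22 mitotic genes and 6 marrow precursor markers in each library (points, blue for control and red for cKO), with group mean and SD in black. The S phase sum is highest in the 6 neuron libraries (291 to 315), and naive control replicate 1 has the highest mitotic sum (146) and the highest marrow precursor sum (601).

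*Cdkn1a* (ENSMUSG00000023067.14, chromosome 17, 29090976 to 29100727, GRCm38, plus strand) was higher after crush and in culture than in naive ganglia. In naive control ganglia it stood at 90.8, 86.03 and 101 CPM, and in naive cKO ganglia at 72.03, 110.4 and 81.6 CPM. After crush it stood at 250.3, 274 and 209 CPM in control and at 189, 292 and 223 CPM in cKO, with no overlap with the naive libraries in either genotype. In neurons it stood at 842, 673 and 647 CPM in control and 641, 703 and 678 CPM in cKO, above every ganglion library. On the other side of sham mice the 4 values lay between 78.6 and 89.3 CPM, close to the naive values. On the operated side they were 116 and 121 CPM in control and 78.1 and 132 CPM in cKO, so 3 of these 4 libraries lay above the range of the other side and 1 just below it.

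*Ccnd1*, which encodes cyclin D1, the partner of CDK4 and CDK6 in G1, was not called after crush. It stood at 64.4, 55.3 and 68.2 CPM in naive control and 53.3, 63.2 and 54.8 CPM in naive cKO ganglia. After crush it stood at 59.7, 56.3 and 57.8 CPM in control and 57.2, 59.8 and 67.2 CPM in cKO, overlapping the naive values. In neurons it stood at 84.6, 78.6 and 61.5 CPM in control and 70.4, 83.5 and 69.5 CPM in cKO. The 8 sham libraries held 36.9 to 54.5 CPM (median 46.7), below nearly all others. *Mybl2*, which encodes the B-Myb transcription factor, had at most 1.19 CPM in any library and did not pass the filter on low counts in the naive and injured ganglia.

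**Figure D2:**
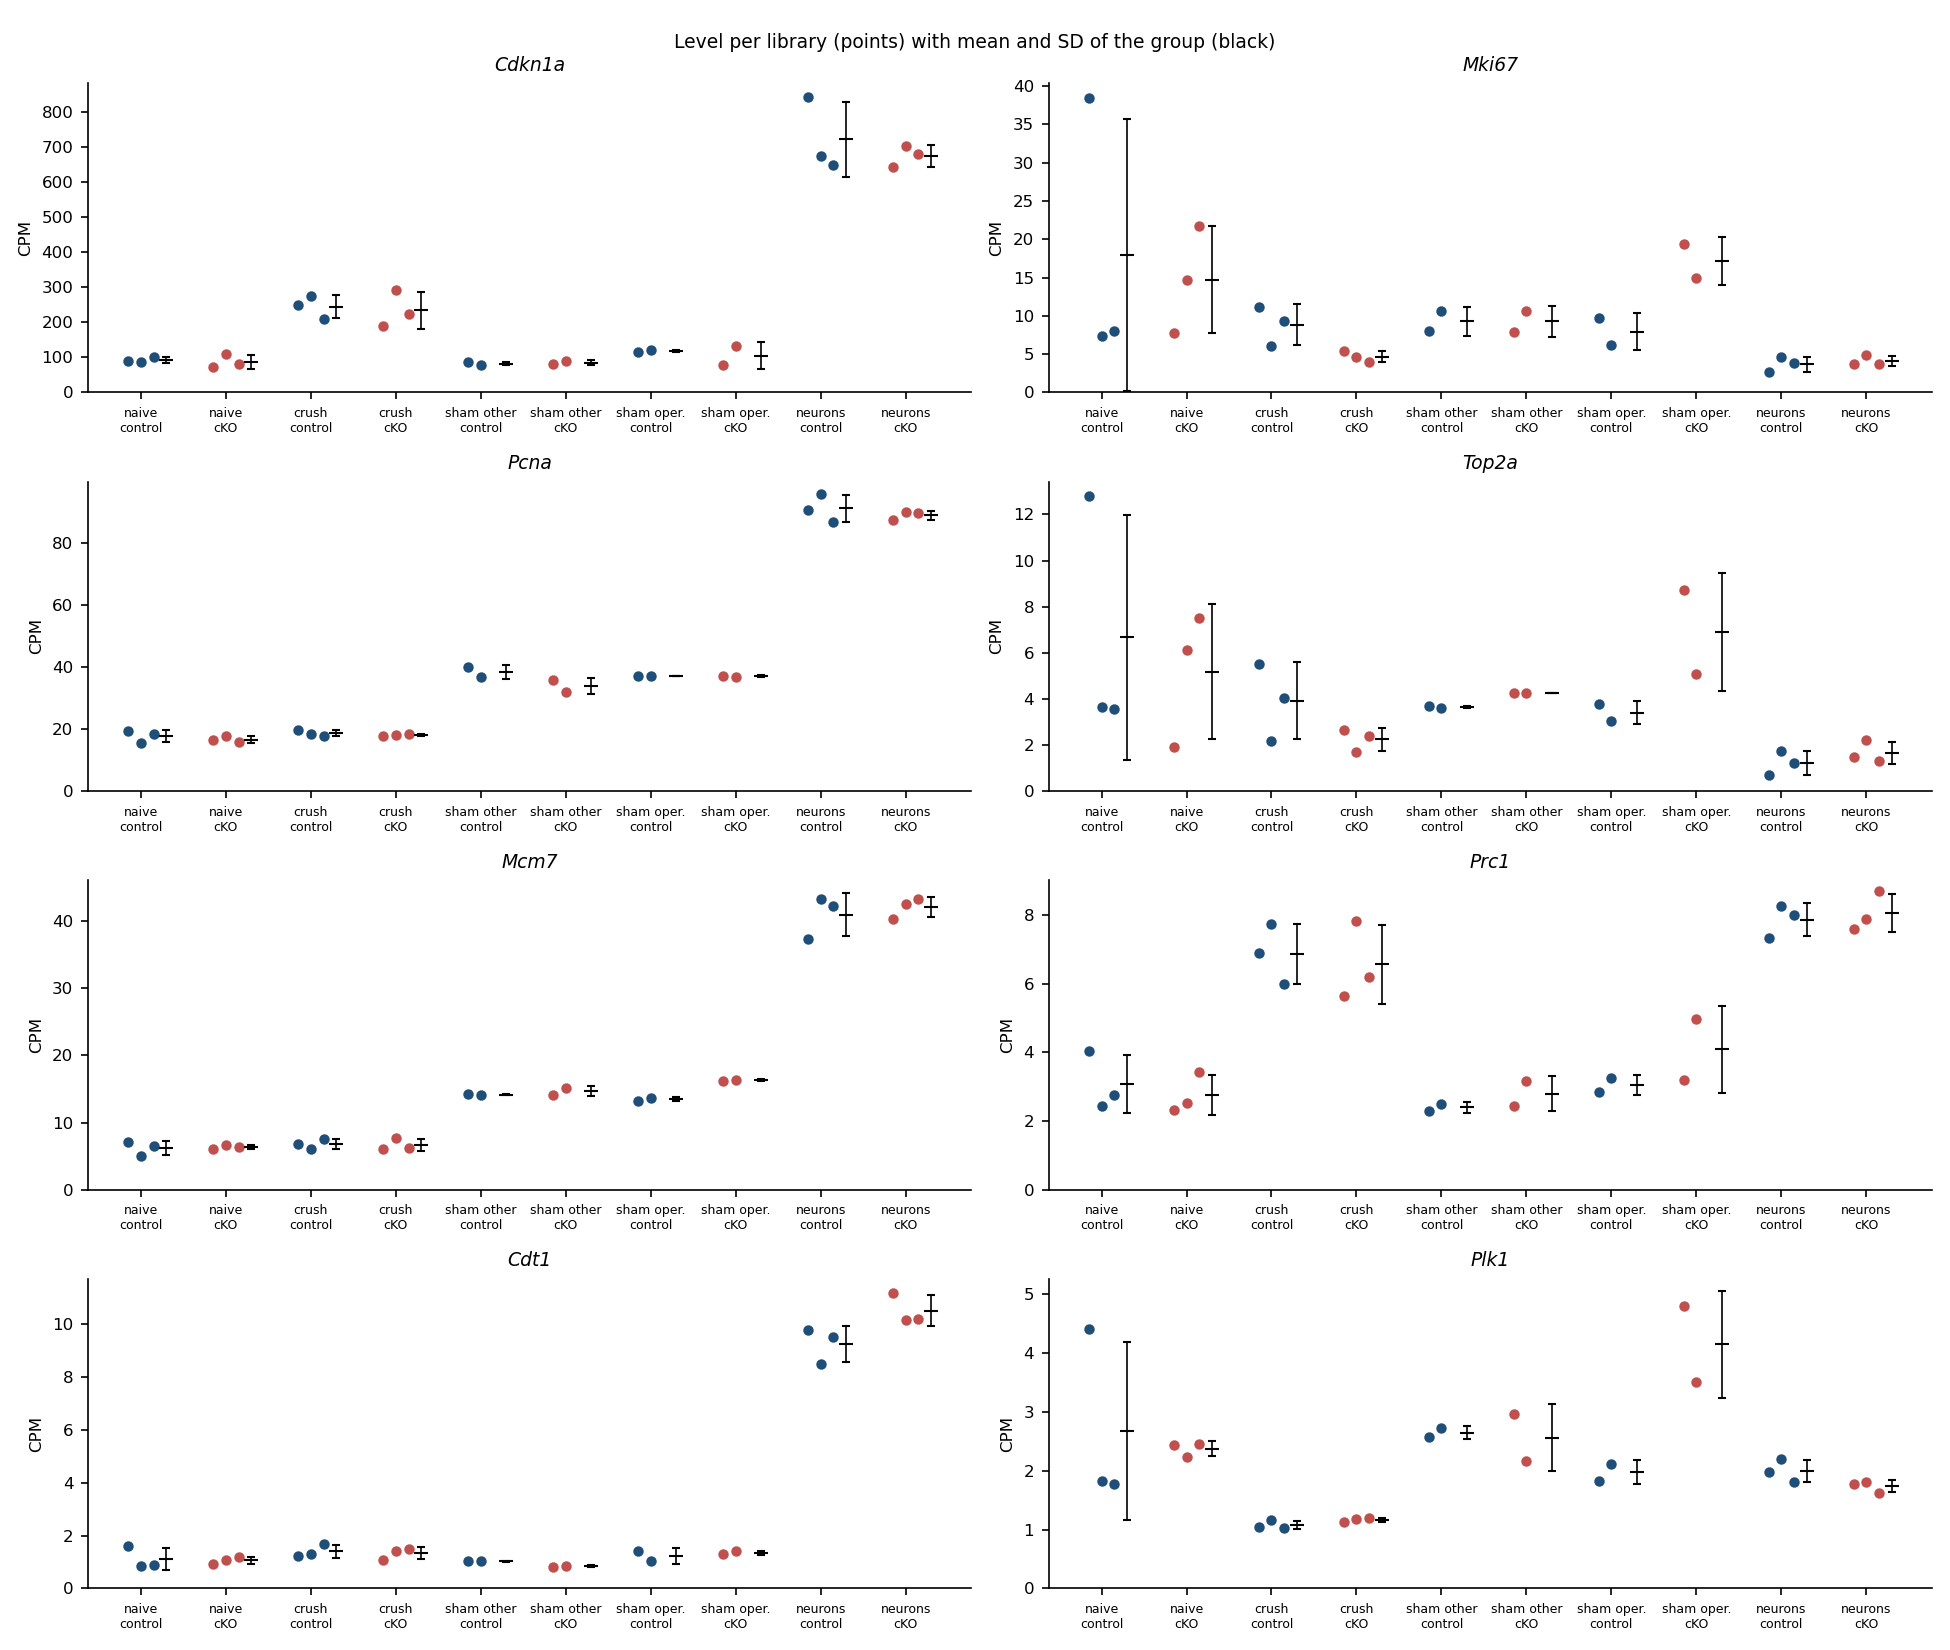
Level (CPM, linear axes) of 8 genes in each of 26 libraries (points, blue for control and red for cKO), with group mean and SD in black. *Cdkn1a* and *Prc1* are higher after crush than in naive ganglia, *Pcna*, *Mcm7* and *Cdt1* are highest in neurons, and *Mki67*, *Top2a* and *Plk1* have their highest or second highest value in naive control replicate 1.

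The first comparison asks what a crush of the sciatic nerve did to these genes within 1 day. *Cdkn1a*, *Prc1* and *Aurka* rose in both genotypes, and *Plk1*, *Nusap1* and *Mcm2* fell in both. No S phase gene rose in either genotype with all libraries included. In control mice 6 of the 38 genes tested were called (15.8%, against 21.6% of all 21261 genes tested), 3 higher (12.9% of all genes) and 3 lower (8.73% of all genes). The injured and naive libraries did not overlap for 9 of the 38 (38.4% of all genes). In cKO mice 9 of 38 were called (23.7%, against 18.6% of all genes), 4 higher (10.7% of all genes) and 5 lower (7.89% of all genes). There the libraries did not overlap for 22 of the 38 (36.3% of all genes). The share called was below that of all genes in control and above it in cKO, and so was the share without overlap. All calls are at an adjusted p under 0.05 in edgeR's quasi-likelihood test with Benjamini-Hochberg adjustment over all genes tested.

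Of the S phase genes, 1 of 14 was called in control and 2 in cKO, all lower. The median log2 fold change of the 14 was -0.10 in control and -0.04 in cKO, against -0.02 and -0.005 over all genes tested. *Mcm2*, a subunit of the replicative helicase, stood at 12.3, 7.999 and 8.75 CPM in naive control and 5.44, 5.54 and 7.58 CPM after crush, without overlap (log2 fold change -0.64, SE 0.172, adjusted p 0.0191). In cKO it stood at 8.06, 9.60 and 8.67 CPM before and 5.43, 5.77 and 6.61 CPM after crush, again without overlap (-0.58, SE 0.174, adjusted p 0.0373). *E2f1*, the transcription factor of the G1 to S step, fell slightly in cKO (-0.24, SE 0.0748, adjusted p 0.0463), and in control its difference was -0.20 (SE 0.075, adjusted p 0.0828). *Pcna*, the sliding clamp of DNA polymerase, stood at 19.2, 15.5 and 18.2 CPM in naive control and 19.8, 18.4 and 17.8 CPM after crush, with a difference of 0.08 that was not called (adjusted p 0.511). In cKO *Pcna* stood at 16.3, 17.7 and 15.7 CPM before and 17.7, 18.1 and 18.2 CPM after crush (0.11, adjusted p 0.404). For the licensing factor *Cdt1* the differences were 0.36 and 0.30 (adjusted p 0.357 and 0.472), and for the loading factor *Cdc6* -0.93 and -0.78 (adjusted p 0.152 and 0.335).

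Of the 22 mitotic genes, 4 were called in control (2 higher, 2 lower) and 6 in cKO (3 higher, 3 lower), with medians of -0.38 and -0.56. Markers of blood and marrow cells moved with these values: in cKO 6 of 6 marrow precursor markers (median -2.15), 5 of 5 neutrophil markers (median -1.78) and 6 of 6 erythroid markers (median -0.96, 2 called) were below 0 after crush. The marrow precursor sum was 105 to 281 CPM in naive cKO and 31.4 to 59.2 CPM in injured cKO, without overlap, and the part of these cells was not tested. In control the markers of these 3 lists were below 0 too, with 0 called. The kinase gene *Aurka*, whose protein acts at the centrosome and spindle, held 4.63 to 6.95 CPM in the 3 naive control libraries and 9.43 to 10.1 CPM after crush, without overlap (0.75, SE 0.144, adjusted p 0.00288). In cKO it held 4.93 to 6.64 CPM before and 8.87 to 10.1 CPM after crush (0.63, SE 0.144, adjusted p 0.00897). *Plk1*, a kinase that drives entry into and progress through mitosis, went the other way. It held 1.78 to 4.42 CPM in naive control and 1.03 to 1.16 CPM after crush (-1.30, SE 0.311, adjusted p 0.0107), and 2.23 to 2.45 against 1.12 to 1.19 CPM in cKO (-1.04, SE 0.311, adjusted p 0.0362), without overlap in either genotype. In cKO, of 6 fits that each left out 1 library, the call was lost in 6 for *Plk1*, 5 for *Mcm2*, and 4 each for *E2f1*, *Melk* and *Tpx2*. In control it was lost in 3 of 6 for *Mcm2* and 4 of 6 for *Nusap1*. The calls of *Cdkn1a*, *Prc1* and *Aurka* in both genotypes, of *Plk1* in control and of *Nusap1* in cKO were lost in 0 of these 6 fits. *Nusap1*, a spindle microtubule protein, fell by 0.46 in control (adjusted p 0.046) and by 0.72 in cKO (adjusted p 0.0061) on the log2 scale. *Tpx2*, an activator of the Aurora A kinase, rose in cKO (0.69, adjusted p 0.0344), with 0.42 in control (adjusted p 0.17), and *Melk*, a mitotic kinase gene at under 1.1 CPM in these ganglia, fell in cKO (-1.25, adjusted p 0.0216), with -0.34 in control (adjusted p 0.458).

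*Prc1*, which encodes a protein that bundles microtubules of the central spindle, had the largest rise of the mitotic class. It stood at 4.03, 2.43 and 2.77 CPM in naive control and 6.89, 7.72 and 5.98 CPM after crush (1.16, SE 0.2, adjusted p 0.00153). In cKO it stood at 2.31, 2.53 and 3.43 CPM before and 5.64, 7.83 and 6.20 CPM after crush (1.23, SE 0.204, adjusted p 0.00131). All injured libraries lay above all naive ones. *Prc1* is uncertain, since it lies wholly within the antisense gene *Rccd1*, which held 167% of its counts in these ganglia and rose too (0.53, adjusted p 0.0208, in control and 0.58, adjusted p 0.0154, in cKO). Reads of *Prc1* were counted for *Rccd1* as well, so the 2 rises are not separate. *Aurka*, *Mcm2* and *E2f1* overlap no other annotated gene.

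*Cdkn1a* rose 2.64-fold in both genotypes (log2 fold change 1.40, SE 0.171, adjusted p 0.000145 in control and 0.000178 in cKO). It was the one gene of the 39 still called in cKO when sex read from the transcripts was added as a covariate. In that fit 1 of 38 genes was called instead of 9, and 1414 of all 21261 genes instead of 3962. Among the naive and injured groups only injured cKO held both sexes by transcripts, so the sex effect was estimated within that group. Without the 2 libraries that do not match their labelled sex, 3 were called in cKO (*Cdkn1a*, *Nusap1* and *Prc1*) and 5 in control (*Aurka*, *Cdkn1a*, *Mcm2*, *Plk1* and *Prc1*). The interaction of genotype and crush, which tests whether the responses differ, called 0 of 38 genes (0% of all genes) and 0 of the 38 had an unadjusted p under 0.05 (2.95% of all genes did). DESeq2 also called 0.

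**Figure D3:**
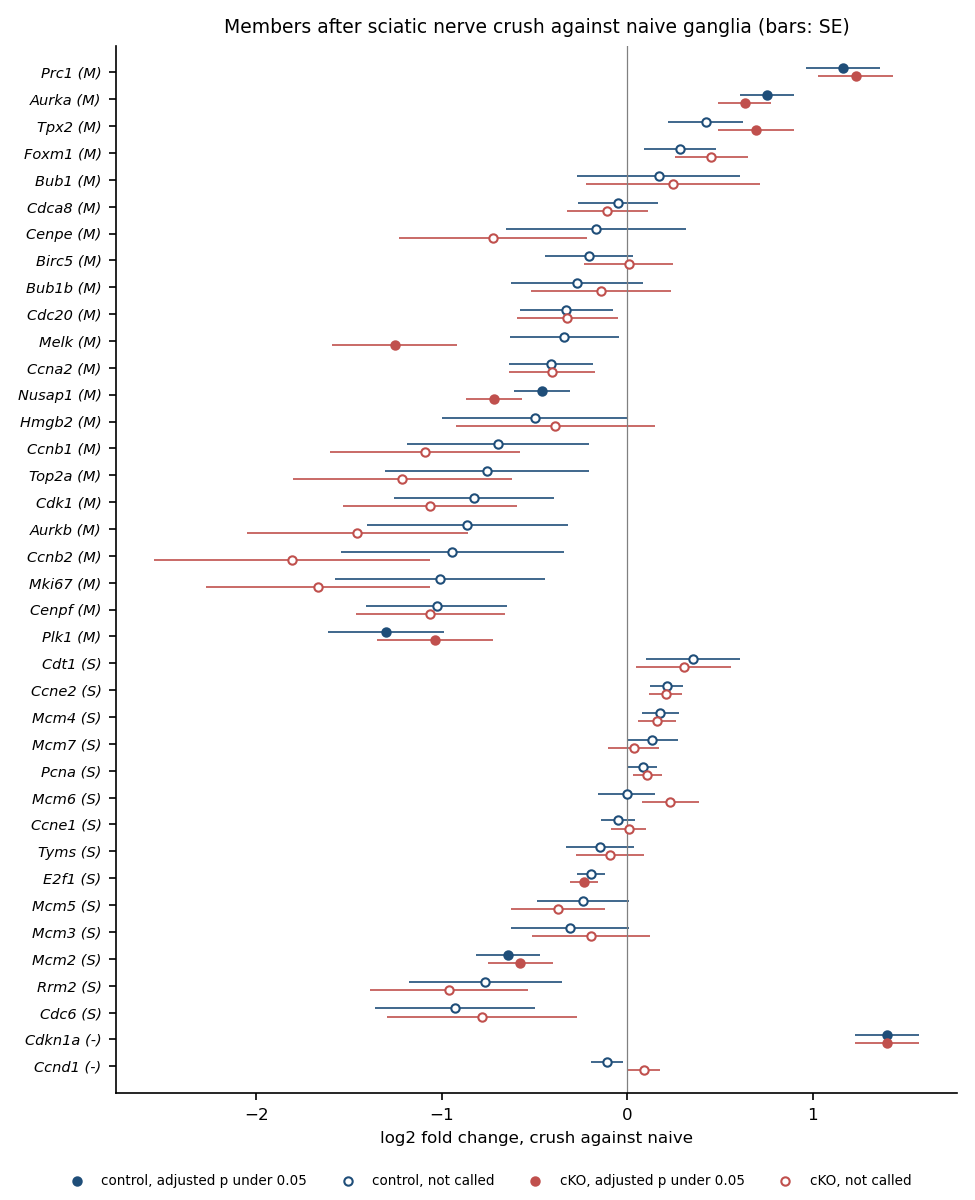
Log2 fold change after crush against naive ganglia (points, bars SE) for the 38 genes tested, in control (blue) and cKO (red) mice with 3 mice per group; filled points have an adjusted p under 0.05, M marks mitotic and S marks S phase genes. *Cdkn1a*, *Prc1* and *Aurka* lie to the right in both genotypes and *Plk1*, *Nusap1* and *Mcm2* to the left, with no filled S phase point to the right.

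Other genes of the pathway, from lists drawn up beside the 39, were read in the same fits, in which 21.6% of all genes were called in control and 18.6% in cKO. Of 30 further S phase genes 29 were tested, and 2 rose and 2 fell in control (13.8% called) and 3 rose and 2 fell in cKO (17.2%). The chromatin remodeller gene *Hells* fell in both (-0.67, adjusted p 0.00115, and -0.57, adjusted p 0.00329), and *Slbp*, which encodes the histone mRNA binding protein, rose in both (0.27, adjusted p 0.00859, and 0.20, adjusted p 0.0456). Of 27 further mitotic genes, 0 rose in either genotype, 1 fell in control (*Ect2*, -0.90, adjusted p 0.0377) and 3 in cKO. Of 15 genes of the G1 machinery, *Myc* rose in both genotypes (0.96, adjusted p 3.14e-05, and 0.90, adjusted p 6.34e-05) and *E2f2* fell in cKO (-0.77, adjusted p 0.0449). Of 6 further inhibitors of cyclin-dependent kinases, *Cdkn2d* rose by 0.21 (adjusted p 0.0281) and 0.27 (adjusted p 0.00816).

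*Cdkn1a* is a classic target of the p53 transcription factor, and 15 other p53 targets were read beside it. In control 5 of the 15 rose (33.3%, against 12.9% of all genes) and in cKO 6 (40.0%, against 10.7%), and 0 fell in either. In control 10 of the 15 had no overlap between injured and naive libraries (38.4% of all genes), and in cKO 7 (36.3% of all genes). Of the 15, 5 had a log2 fold change below 0 in control and 2 in cKO. *Gadd45a*, a growth arrest and DNA damage gene, went from 21.8 ± 1.47 to 206 ± 24.4 CPM in control (SD, n = 3 each; 3.24, adjusted p 7.57e-08) and had a log2 fold change of 3.26 in cKO (adjusted p 8.91e-08). *Pmaip1*, which encodes the apoptosis protein Noxa, rose by 2.24 and 2.60 (adjusted p 1.49e-05 and 7.08e-06). *Mdm2*, the p53 ubiquitin ligase gene, rose by 0.50 and 0.40 (adjusted p 0.000148 and 0.000806). The median over the 15 was 0.27 in control and 0.29 in cKO.

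Naive control replicate 1 stood apart from the other naive libraries in these genes. *Mki67*, whose product Ki-67 coats mitotic chromosomes and marks dividing cells, stood at 38.5 CPM there and at 7.32 and 8.03 CPM in the other naive controls. In naive cKO *Mki67* stood at 7.80, 14.7 and 21.7 CPM. After crush it stood at 11.2, 6.03 and 9.36 CPM in control and 5.38, 4.63 and 4.02 CPM in cKO, so the injured and naive cKO libraries did not overlap. The differences of -1.01 and -1.67 after crush were not called (adjusted p 0.238 and 0.0779). Without naive control replicate 1, the median of the mitotic genes after crush in control turned from -0.38 to 0.15 and that of the S phase genes from -0.10 to 0.17. That fit again called 6 genes, now *Aurka*, *Cdkn1a*, *Mcm4*, *Plk1*, *Prc1* and *Tpx2*, so that 1 S phase gene, *Mcm4*, was higher, and *Mcm2* and *Nusap1* were no longer called.

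The same library had the highest level of 6 markers of marrow granulocyte precursors (*Mpo*, *Elane*, *Prtn3*, *Ngp*, *Camp* and *Ltf*). Their summed level was 601 CPM there against 67.01 to 281 CPM in the 5 other naive libraries and 57.8 to 247 CPM in injured control, and none of the 6 was at 0 in a ganglion library. Across the 6 naive libraries *Mki67* and this sum correlated at Pearson r 0.922 (exact permutation p 0.0722) and Spearman rho 0.886 (exact permutation p 0.0333). Across the 6 injured libraries r was 0.875 (exact permutation p 0.0722) and rho 0.886 (exact permutation p 0.0333). Adjusted over these 2 relations, chosen after the values were seen, the p-values were the same, and without the 2 libraries farthest from the median of the marker sum r was 0.914 and 0.93. These values pool the genotypes. In injured ganglia every control library was above every cKO library in *Mki67* (6.03 to 11.2 against 4.02 to 5.38 CPM). The marrow precursor sum was 57.8 to 247 CPM in injured control and 31.4 to 59.2 CPM in injured cKO. Genotype and this relation therefore cannot be told apart there. With 3 libraries, a single genotype holds too few for a value of its own. The part of these cells in the mitotic differences was not tested.

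**Figure D4:**
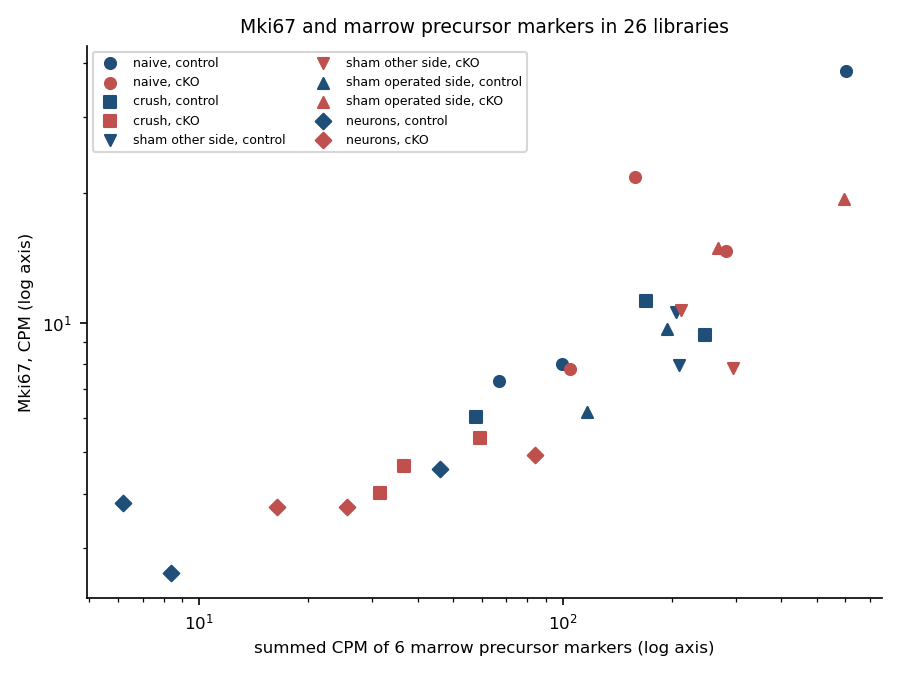
*Mki67* (CPM, log axis) against the summed CPM of 6 marrow precursor markers (log axis) in 26 libraries, by condition (shape) and genotype (blue control, red cKO). Naive control replicate 1 lies at the upper right (38.5 CPM of *Mki67*, 601 CPM of the markers) and the neurons at the lower left.

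The second comparison sets cultured neurons against naive ganglia of the same genotype. In culture most S phase genes rose, while the mitotic genes split, with *Mki67*, *Top2a* and *Cenpf* among those that fell and *Tpx2* and *Prc1* among those that rose. Of 39 genes tested, 27 were called in control (69.2%, against 83.2% of all 22185 genes), 17 higher and 10 lower (41.7% and 41.6% of all genes). In cKO 25 were called (64.1%, against 82.1% of all genes), 19 higher and 6 lower (42% and 40.1% of all genes). Neuron and naive libraries did not overlap for 25 of 39 in control (82.4% of all genes) and 30 in cKO (86.2%). Since most genes differed, the direction was read for each class, and no difference between the classes was tested. Of the S phase genes 10 of 14 (71.4%) rose in each genotype, and their medians were 0.90 and 0.99, against -0.02 and 0.01 over all genes. Of the mitotic genes 5 of 22 rose and 8 fell in control, and 7 rose and 5 fell in cKO, with medians of -0.22 and -0.19 that turned to 0.13 without naive control replicate 1 (control) and to 0.04 with at least 10 counts in every library (cKO). The 2 sets of libraries come from different tables, so culture, purification, preparation and table cannot be told apart.

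The 10 S phase genes that rose were the same in both genotypes: *Ccne1*, *Cdt1*, *Mcm2* to *Mcm7*, *Pcna* and *Tyms*. *Pcna* stood at 90.7, 95.7 and 86.8 CPM in control neurons and 87.2, 89.9 and 89.5 CPM in cKO neurons, each above every ganglion library (2.38, SE 0.0797, adjusted p 7.35e-11 in control; 2.43, SE 0.0799, adjusted p 6.27e-11 in cKO). *Pcna* has annotated pseudogenes that held 10672 counts beside its own 55064, so its counts may be split. All 6 genes of the MCM2 to MCM7 helicase rose. *Mcm7* held 37.4 to 43.3 CPM in the 6 neuron libraries and 5.02 to 7.12 CPM in the 6 naive ones (2.74 in control and 2.72 in cKO), *Mcm6* 38.9 to 46.5 against 7.84 to 13.8 CPM (2.06 and 2.15), and *Mcm3* 18.3 to 23.7 against 2.21 to 6.43 CPM (2.29 and 2.50). *Mcm2* stood at 17.4, 19.0 and 15.5 CPM in control neurons and 17.8, 17.4 and 15.8 CPM in cKO neurons (0.85, adjusted p 0.000141, and 0.96, adjusted p 5.16e-05). *Mcm4* rose least (0.38, adjusted p 0.00408, and 0.54, adjusted p 0.000355).

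The loading factor *Cdt1* had the largest rise of the S phase class, from 0.851 to 1.59 CPM in the 6 naive libraries to 8.51 to 11.2 CPM in the 6 neuron libraries (3.08, SE 0.191, adjusted p 1.4e-08, and 3.31, SE 0.192, adjusted p 7.59e-09). It lies wholly within the gene model *Gm20388* on the same strand, whose counts exceed those of *Cdt1* many times over, and *Gm20388* itself had -0.18 in both genotypes (adjusted p 0.0141 and 0.0122). *Cdc6*, its partner in loading the helicase, was not called (-0.40, adjusted p 0.336, and 0.77, adjusted p 0.09). *E2f1* fell, from 29.1, 32.7 and 30.4 CPM in naive control to 18.7, 19.9 and 20.3 CPM in control neurons (-0.63, SE 0.0787, adjusted p 8.96e-06). In cKO *E2f1* went from 31.7, 30.5 and 35.1 to 24.0, 21.9 and 21.0 CPM (-0.54, SE 0.0777, adjusted p 3.63e-05). *Rrm2*, a subunit of ribonucleotide reductase, was called lower in control (-1.07, adjusted p 0.0232) and not in cKO (-0.76, adjusted p 0.0861). Without naive control replicate 1 its value in control was -0.28 (adjusted p 0.214), so that call rests on the library that stood apart.

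Of the mitotic genes, 5 fell in both genotypes: *Mki67*, *Top2a*, *Cenpf*, *Birc5* and *Nusap1*. Of 6 fits that each left out 1 library, the call in cKO was lost in 3 for *Nusap1* and 2 for *Top2a*, and in 0 for the others. *Mki67* stood at 2.62, 4.57 and 3.81 CPM in control neurons and 3.72, 4.93 and 3.73 CPM in cKO neurons, each below every naive library (-2.24, SE 0.58, adjusted p 0.00325 in control; -1.83, SE 0.566, adjusted p 0.0097 in cKO). *Top2a*, the topoisomerase that untangles replicated chromosomes, held 0.713 to 2.22 CPM in neurons and 1.92 to 12.8 CPM in naive ganglia (-2.37, adjusted p 0.00213, and -1.63, adjusted p 0.0161). *Cenpf*, a kinetochore gene, held 0.159 to 0.547 against 1.39 to 4.16 CPM (-2.95, adjusted p 0.000106, and -2.59, adjusted p 0.000249). *Birc5*, which encodes survivin of the chromosomal passenger complex, fell by 1.56 (adjusted p 0.000109) and by 0.99 (adjusted p 0.00274). The checkpoint kinase gene *Bub1* fell in control (-2.54, adjusted p 0.00182, with 0, 0.228 and 0.383 CPM in control neurons) and had -1.01 in cKO (adjusted p 0.112). *Cdk1* and *Aurkb* were called lower in control (-1.38, adjusted p 0.01, and -1.42, adjusted p 0.0248) and not in cKO, and neither was called in control without naive control replicate 1 (-0.67, adjusted p 0.0765, and -0.46, adjusted p 0.319). In that fit the median of the mitotic class in control turned from -0.22 to 0.13 and 8 of its genes rose instead of 5.

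The 5 mitotic genes that rose in both genotypes were *Hmgb2*, *Tpx2*, *Prc1*, *Bub1b* and *Cdca8*. Of 6 fits that each left out 1 library, the call in control was lost in 3 for *Bub1b* and 2 for *Cdca8*, and in 0 for the others. *Tpx2* held 11.3 to 15.8 CPM in the neurons and 3.40 to 6.86 CPM in naive ganglia (1.45, adjusted p 3.98e-05, and 1.64, adjusted p 1.43e-05). *Prc1* stood at 7.33, 8.27 and 7.99 CPM in control neurons and 7.59, 7.88 and 8.68 CPM in cKO neurons (1.37, adjusted p 1.57e-05, and 1.55, adjusted p 5.61e-06). The antisense *Rccd1*, whose counts include the reads of *Prc1*, rose by 0.89 and 1.01 (adjusted p 5.09e-05 and 1.82e-05). *Hmgb2*, a chromatin protein gene, stood at 15.93, 15.97 and 13.3 CPM in control neurons and 15.2, 17.6 and 14.2 CPM in cKO neurons. In naive ganglia *Hmgb2* stood at 8.27, 1.53 and 2.06 CPM in control and 1.61, 3.54 and 2.71 CPM in cKO (1.95, adjusted p 0.00157, and 2.58, adjusted p 0.000259). *Aurka*, which rose after crush, was not called in culture (0.04, adjusted p 0.816, and 0.09, adjusted p 0.594).

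**Figure D5:**
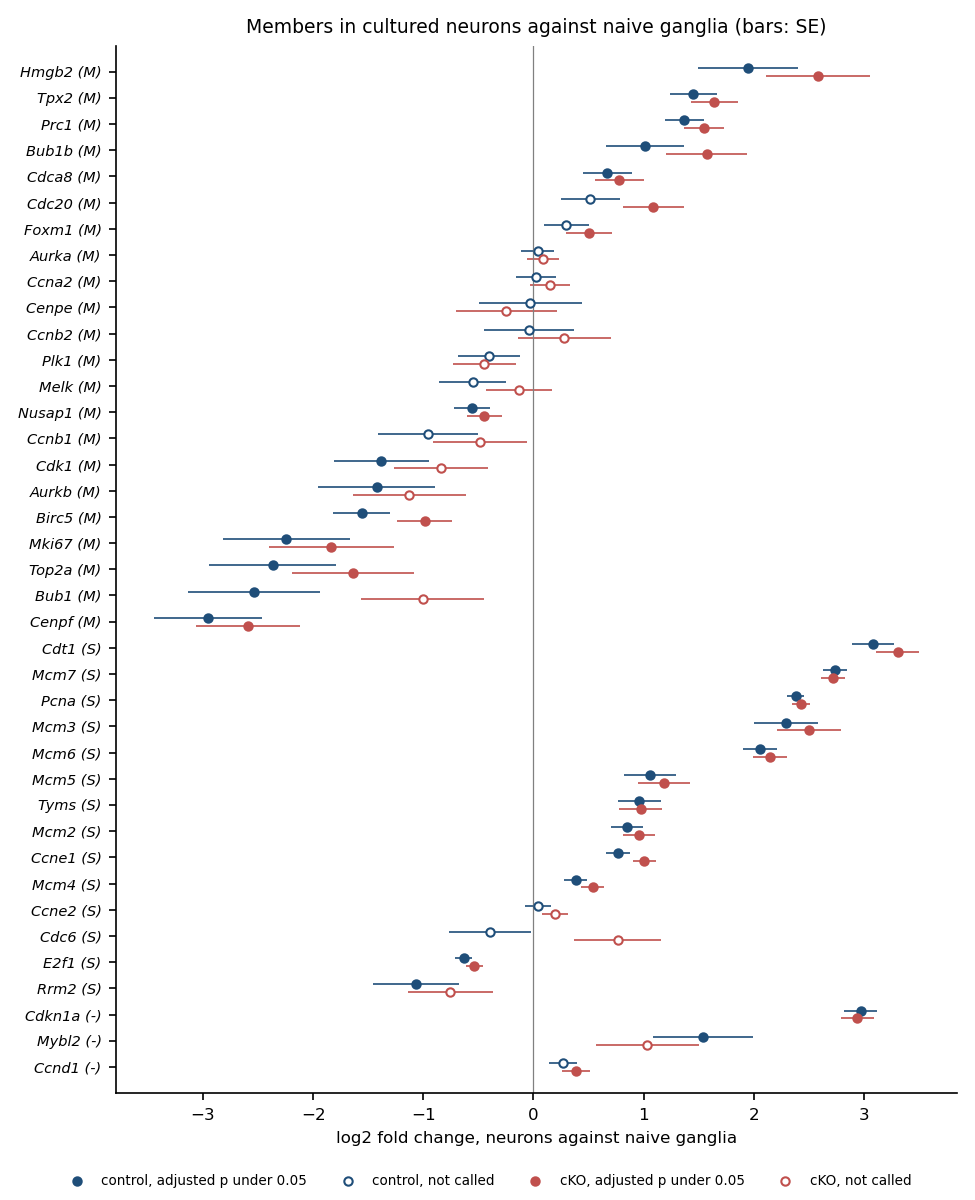
Log2 fold change of cultured neurons against naive ganglia (points, bars SE) for 39 genes in control (blue) and cKO (red), 3 libraries per group; filled points have an adjusted p under 0.05, M marks mitotic and S marks S phase genes. Filled S phase points lie to the right except *E2f1* and, in control, *Rrm2*, while mitotic points run from *Hmgb2* at the right to *Cenpf* at the left.

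The promoters of both classes are shown for a pair of genes each, picked because they hold the motif of their class and differed in direction in culture, *Mcm5* (1.06 and 1.18) and *Mcm6* on one side and *Mki67* and *Top2a* on the other. Each is the stretch of 180 bases before the RefSeq start of the gene, 5' to 3' on the gene's strand, from RefSeq on GRCm38.p6. Capitals mark, in the S phase genes, matches to an E2F motif (TTTCCCGC, TTTGGCGC, TTTCGCGC or TTTGCCGC on either strand, where matches can overlap), and in the mitotic genes matches to the cell cycle homology region, the CHR motif of mitotic promoters (TTTGAA on either strand).
*Mcm5*, chr8:75109329-75109508, plus strand: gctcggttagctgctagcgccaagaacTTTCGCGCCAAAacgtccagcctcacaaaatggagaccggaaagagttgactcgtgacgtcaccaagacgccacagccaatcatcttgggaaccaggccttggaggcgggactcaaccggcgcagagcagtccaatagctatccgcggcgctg
*Mcm6*, chr1:128359706-128359885, minus strand: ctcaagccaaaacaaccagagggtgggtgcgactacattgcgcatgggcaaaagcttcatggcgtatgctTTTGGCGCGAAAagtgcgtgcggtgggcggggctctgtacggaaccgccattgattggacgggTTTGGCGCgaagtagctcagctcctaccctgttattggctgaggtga
*Mki67*, chr7:135716380-135716559, minus strand: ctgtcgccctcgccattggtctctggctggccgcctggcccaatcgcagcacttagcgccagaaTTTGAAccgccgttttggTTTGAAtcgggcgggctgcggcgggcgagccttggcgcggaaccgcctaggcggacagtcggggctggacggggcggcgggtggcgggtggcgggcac
*Top2a*, chr11:99024190-99024369, minus strand: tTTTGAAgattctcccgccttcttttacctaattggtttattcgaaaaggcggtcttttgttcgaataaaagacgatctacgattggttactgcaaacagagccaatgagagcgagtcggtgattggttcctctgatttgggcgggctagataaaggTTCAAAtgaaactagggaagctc

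In windows of 300 bases (250 before and 50 after the start), 32 of the 39 genes were matched by symbol to a promoter in the RefSeq table. The E2F motif was in 6 of 12 S phase promoters and 1 of 18 mitotic promoters (5.56%), against 2.26% of all 32851 promoters. The CHR motif was in 1 of 12 S phase promoters (8.33%) and 12 of 18 mitotic promoters (66.7%), against 17.9% of all. The CCAAT motif was in 58.3% and 83.3% of the classes and 37.4% of all promoters. By direction in culture, the CHR motif was in 4 of 4 mitotic promoters of genes higher in both genotypes (*Hmgb2*, *Prc1*, *Bub1b* and *Cdca8*) and in 3 of 5 of genes lower in both, being absent in the windows of *Birc5* and *Nusap1*. The E2F motif was in 5 of 9 S phase promoters of genes higher in both and not in that of *Pcna*. Mitotic genes of either direction thus held the CHR motif. These matches describe the sequences and are not sites shown to be bound.

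Of the genes outside both classes, *Cdkn1a* rose in culture by 2.97 (SE 0.151, adjusted p 2.35e-09) and 2.94 (SE 0.151, adjusted p 2.55e-09), a rise of 7.85-fold in control. *Ccnd1* rose in cKO (0.39, SE 0.124, adjusted p 0.0119) and had 0.27 in control (adjusted p 0.0613). *Mybl2* rose in control (1.54, SE 0.454, adjusted p 0.00731) and had 1.03 in cKO (adjusted p 0.058). Its highest level, 1.19 CPM, leaves few counts behind these values.

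Further genes of the pathway were read beside the members, in fits where 41.7% of all genes rose and 41.6% fell in control and 42% rose and 40.1% fell in cKO. Of 30 other S phase genes, 29 were tested, and 18 rose and 5 fell in control and 17 rose and 5 fell in cKO. *Nasp*, a histone chaperone gene, rose (2.40, adjusted p 3.16e-11, and 2.63, adjusted p 1.88e-11), and *Mcm10*, a replication initiation gene, rose by 2.05 and 1.91 (adjusted p 0.000247 and 0.000554). Of 27 other mitotic genes, 10 rose and 9 fell in control and 9 rose and 10 fell in cKO. Among those that rose were *Psrc1* (5.07 and 5.79, adjusted p 2.13e-09 and 1.36e-09) and *Gtse1* (3.53 and 3.95, adjusted p 1.15e-08 and 5.58e-09), both known as genes that respond to p53. *Psrc1* went from 0.714 ± 0.280 to 24.1 ± 3.94 CPM in control (SD, n = 3 each). Among those that fell was the cytokinesis gene *Anln* (-1.67 and -1.81, adjusted p 4.81e-09 and 2.06e-09).

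Of the 15 p53 targets 14 rose in control (93.3%, against 41.7% of all genes) and 13 in cKO (86.7%, against 42%), and 0 fell (medians 2.03 and 2.17). The list was not tested against other genes. *Sesn2*, a stress response gene, rose by 3.66 and 3.87 (adjusted p 6.19e-12 and 4.79e-12) and *Mdm2* by 2.41 and 2.15 (adjusted p 1.85e-11 and 3.61e-11). Of the 15 G1 genes 8 rose and 6 fell in control, and 8 rose and 4 fell in cKO. *Myc* rose by 3.02 in both genotypes (adjusted p 2.15e-11 and 2.05e-11), *Cdk2*, the cyclin E partner, by 2.04 and 1.88 (adjusted p 6.74e-07 and 1.43e-06), while the E2F family genes *E2f2* (-1.96 and -1.69) and *E2f8* (-3.58 and -2.46) fell. Of the 6 other kinase inhibitors 5 fell in control, and in cKO 4 fell and 1 rose (*Cdkn2b*, 0.37, adjusted p 0.0319). Among those that fell was *Cdkn1b*, which encodes p27 (-0.85, adjusted p 7.35e-05, and -1.14, adjusted p 5.74e-06).

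Markers of other cell types differed too, in both directions, where 83.2% of all genes were called in control and 82.1% in cKO. All 5 endothelial markers rose (summed level 945 to 1422 CPM in neurons against 99.2 to 177 CPM in naive ganglia), as did 3 of 4 pericyte markers. Of 5 satellite glia and 5 fibroblast markers, 4 of each fell and 1 of each rose in both genotypes. Of 7 macrophage markers 2 rose and 5 fell in control, and 2 rose and 3 fell in cKO. The marrow precursor sum was 6.17 to 84.0 CPM in neurons, with *Elane* at 0 counts in 1 control library, and 67.01 to 601 CPM in naive ganglia. The erythroid sum was 5.14 to 25.4 CPM against 248 to 589 CPM, and the Schwann cell sum 590 to 727 CPM against 3001 to 4921 CPM. The part of these cells in the S phase and mitotic differences was not tested.

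The neurons can also be set against ganglia of their own table, those of the other side of sham mice, although the neurons are labelled female and the sham mice male. Here 29 of 39 genes were called (74.4%, against 75.5% of all 24192 genes), 18 higher and 11 lower (39.1% and 36.4% of all genes). The 6 neuron libraries of both genotypes did not overlap the 4 ganglia for 25 of 39 (65.1% of all genes). Of the S phase genes 11 of 14 rose and 1 fell, with a median of 0.69. Of the mitotic genes 5 rose and 10 fell, with a median of -0.10. Several sizes depended on the ganglia used. *Pcna* stood at 32.05 to 40.00 CPM in these 4 ganglia, above the 15.5 to 19.2 CPM of the naive ones, and rose by 1.39 (adjusted p 1.88e-10) instead of 2.38. *Mcm7* stood at 14.1 to 15.2 CPM and rose by 1.60 (adjusted p 1.98e-10). *Hmgb2* stood at 12.6, 13.7, 16.6 and 15.2 CPM in the 4 ganglia and was not called (0.16, adjusted p 0.279), nor were *Cdca8* (0.22, adjusted p 0.0864), *Nusap1* (0.09, adjusted p 0.485) and *Ccne1* (0.17, adjusted p 0.0686).

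The directions of several genes were the same against both sets of ganglia. Both sets are compared with the same neuron libraries, so a shared direction is not separate support. *Ccnd1*, not called against naive control ganglia, rose against the sham ganglia without overlap (0.80, SE 0.101, adjusted p 1.15e-05). *Cdt1* rose by 3.48 (SE 0.12, adjusted p 1.18e-10), *Mcm6* by 1.99 (adjusted p 2.75e-10), *Mcm3* by 2.18 (adjusted p 1.21e-09) and *Cdkn1a* by 3.13 (SE 0.138, adjusted p 7.46e-10). *E2f1* fell by 1.02 (adjusted p 1.16e-08), and *Mki67*, *Top2a* and *Cenpf* fell by 1.17, 1.37 and 1.62 (adjusted p 7.44e-05, 0.000115 and 0.000288). Table, labelled sex and surgery differ between the naive and the sham ganglia and cannot be told apart in the differences between them, and whether tamoxifen differed is not stated.

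The third comparison asks whether the cKO genotype changed these genes. In no setting was any of the 39 called. In naive ganglia 0 of 38 were called (0.00941% of all genes were), and 1 had an unadjusted p under 0.05 (5.79% of all genes), *Cdc6*. In injured ganglia 0 of 38 were called (0.00941% of all genes), with 1 at an unadjusted p under 0.05 (2.72% of all genes), *Melk* (-1.05, SE 0.346, adjusted p 1). In neurons 0 of 39 were called (0% of all genes; DESeq2 called 0 of the 39 too), with 1 at an unadjusted p under 0.05 (8% of all genes), *Mybl2* (-0.62, SE 0.229, adjusted p 0.587). On the other side of sham mice 0 of 39 were called (0% of all genes), with 0 at an unadjusted p under 0.05 (5.23% of all genes).

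The mitotic genes leaned to one side within several settings, though not the same side in each, with no call. In neurons 15 of 22 had a log2 difference above 0 in cKO. On the other side of sham mice 12 were above and 10 below 0. In naive ganglia 19 of 22 had a log2 difference below 0 in cKO (median -0.19, which turned to 0.17 without naive control replicate 1), and in injured ganglia 19 of 22 (median -0.39). In injured cKO ganglia 6 of 6 marrow precursor markers (median -1.67), 5 of 5 neutrophil markers (median -1.76) and 6 of 6 erythroid markers (median -1.06) were below 0 as well, with 0 called, and their part was not tested. On the operated side of sham mice all 22 were above 0, with a median of 0.70, and 15 of the 22 had an unadjusted p under 0.05 (7.59% of all genes did), but 0 of 39 passed the adjustment (0.00451% of all genes). *Mki67* stood at 9.67 and 6.20 CPM in control and 19.4 and 14.9 CPM in cKO (1.14, SE 0.265, adjusted p 0.498). *Hmgb2* stood at 11.7 and 10.6 CPM in control and 27.9 and 16.7 CPM in cKO (1.04, SE 0.217, adjusted p 0.498), and *Plk1* at 1.83 and 2.12 against 4.79 and 3.51 CPM (1.11, SE 0.226, adjusted p 0.498). Both cKO libraries lay above both controls for each of these, and the groups did not overlap for 28 of the 39 genes (35.8% of all genes). The marrow precursor sum was higher in the same cKO libraries (592 and 268 CPM, against 194 and 117 CPM in control), and its part was not tested. DESeq2 called *Hmgb2*, *Mki67* and *Top2a* among 153 of all 22160 genes, and edgeR without the filter on low counts called 9 of the 39, all mitotic, among 626 of all 35021 genes.

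Between the sides of sham mice, which gives the background of surgery without a crush, 0 of 39 genes were called (0.00451% of all genes), with 7 at an unadjusted p under 0.05 (7.56% of all genes). The difference for *Cdkn1a* was 0.44 (SE 0.145, adjusted p 0.542). *Tpx2* had the smallest p of the 39 (0.38, SE 0.099, adjusted p 0.449). A fit blocked by mouse, since both sides came from the same animal, called 0 as well.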

How the data were processed

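Gene counts and FPKM values were deposited by the authors in 2 pairs of tables, 1 for naive and injured ganglia and 1 for sham ganglia and neurons. Per the labels' protocols, total RNA was prepared with the RNeasy Plus Mini kit and libraries with TruSeq Stranded mRNA. The submitters' processing notes name Trim Galore, HISAT2, featureCounts and the mm10 build; versions and settings are not given in the sources used here. The deposited FPKM values divide by the whole gene span, introns included (within 0.1% for 100.0% of 39651 genes), and were used for that check only.

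The raw counts were tested with edgeR 4.0.16 (R 4.3.3): filterByExpr as the low count filter (10 per gene in enough libraries, total of at least 15), TMM scaling, quasi-likelihood fits on group means, Benjamini-Hochberg adjustment over all genes tested, threshold 0.05. Standard errors were obtained as log2 fold change over root F. Levels are CPM with TMM factors over all 26 libraries. The 12 comparisons came from 5 fits, of naive and injured ganglia, neurons, sham ganglia, naive ganglia with neurons, and the whole second table. Replicates differed beyond sampling noise (chi-square per degree of freedom 3.14 to 36.3). Scripts were tested on simulated counts. Correlations used exact two-sided permutation tests.

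The members and the other lists were chosen with earlier results of these data known. All 39 members could be named. Values per library were given for *Cdkn1a*, *Ccnd1* and, in each class, the member with the smallest p after crush and in culture and that with the highest mean level; *E2f1*, *Mki67*, *Bub1*, *Plk1* and the genes of other lists were added after their values were seen. Alternatives were DESeq2 1.42.0, RLE scaling, no filter and a stricter one, an adjusted p under 0.1, fits on the contrasted groups alone, a replicate block, sex by transcripts and leaving out each library. Replicate numbers pair samples only for the sides of the sham mice, which share an animal.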

Additional observations from a re-analysis of the deposited data

Results flagged for a closer look

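The genotype effect (cKO against control) had opposite signs in 2 settings, with every cKO library above every control library in one and below in the other, for 21 of 390 comparisons of settings (each pair of the 5 settings, for each of the 39 genes), which is 5.38%. Over all genes tested in both settings of a pair the share was 2.15%, from 0.31% to 4.13% by pair, and it was 2.66% between injured ganglia and the operated side. The crush and culture effects, compared between the genotypes for each gene in 78 further comparisons, gave 0. None of these differences was tested, and no genotype effect of a member passed its own adjusted threshold. Each value is the difference between the 2 log2 effects, the second setting minus the first.

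Between injured ganglia and the operated side of sham mice the difference was 2.01 for *Cdc6*, 0.582 for *Mcm5*, 2.07 for *Mki67*, 2.04 for *Aurkb*, 1.35 for *Cdc20*, 0.968 for *Cenpe*, 2.34 for *Melk* and 1.51 for *Hmgb2*. In all 8 the cKO libraries were lower after crush and higher on the operated side. Between injured ganglia and the other side of sham mice it was 0.725 for *Cenpe* and 0.736 for *Hmgb2*.

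Between neurons and the operated side the difference was -0.289 for *E2f1*, 1.55 for *Ccnb2*, 1.32 for *Plk1* and 1.64 for *Mybl2*. Between neurons and the other side it was -0.491 for *Cdt1*, 0.715 for *Ccnb2* and 1.43 for *Mybl2*. Between the operated and the other side it was -1.08 for *Rrm2*, -0.504 for *Tyms*, -0.413 for *Aurka* and -0.909 for *Cdc20*. The sham groups hold 2 libraries each, and 35.8% and 38.3% of all genes had no overlap between the genotypes on the operated and the other side, against 8.73% in injured ganglia and 14.7% in neurons.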

How the results depend on the processing

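Genes called after crush in control numbered 4 to 8 over 15 alternatives, and those called in culture 24 to 30 in control and 22 to 32 in cKO over 13 alternatives each, against 6, 27 and 25. Against the sham ganglia 26 to 32 were called over 16 alternatives, against 29. After crush in cKO the count of 9 ranged from 1 to 11 over 15 alternatives. It was 1 when sex, as the transcripts show it, was a covariate, a fit that called 1414 of all 21261 genes instead of 3962. It was 3 without the 2 libraries that go against their labelled sex, and 5 to 6 when 1 library was left out. *Cdkn1a* was called in every alternative of both crush and both culture comparisons. For genotype on the operated side of sham mice the count of 0 became 3 with DESeq2 (153 of all 22160 genes) and 9 with no filter (626 of all 35021), and 0 to 1 when 1 library was left out (*Hmgb2*, without cKO replicate 2). Between the sides it became 1 with no filter (*Cdkn1a*, among 381 of all 35021 genes). The cause was not tested. The interaction and the other genotype comparisons stayed at 0 in all alternatives run. No called gene changed direction, whereas class medians, which have no test, did: without naive control replicate 1 those after crush in control turned from -0.38 to 0.15 (mitotic) and from -0.10 to 0.17 (S phase), and other medians near 0 changed sign as well.

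With a replicate block 5 and 7 genes were called after crush (control and cKO), 26 and 24 in culture, and 0 between the genotypes in neurons. Correlations of same-numbered libraries ran from -0.393 to 0.381 in naive and injured ganglia. In sham mice the sides correlated at 0.218 in control and -0.168 in cKO, and with the cKO mouse numbers crossed, an alternative chosen after seeing the data, the block again called 0. Members under 1 CPM in some libraries, such as *Melk*, *Bub1* and *Mybl2*, rest on few counts.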
